A study of Mus musculus with 16 samples.

Results

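The genes described here are 51 cell cycle and DNA replication genes out of the 50600 in the count table, 23 that act from late G1 into S phase (S-phase genes) and 28 that act in G2 and mitosis (G2/M genes). The list was drawn up by name and role, with earlier results of these data known, and uses no measured value as a threshold. All 51 were found in the table and passed the filter on low counts, as did 16345 genes in all. Bulk RNA was sequenced from cells sorted from male mice of 13 to 14 weeks, with 4 groups of 4 libraries. Control microglia and ischemic microglia were CX3CR1+ cells of CX3CR1CreERT2:Rosa26-tdT mice, the former from control brain and the latter from the ipsilateral hemisphere after ischemia. Brain CD11c cells and spleen CD11c cells were CD11c-eYFP+ cells of Tg(Itgax-Venus)1Mnz mice, taken from the ischemic ipsilateral hemisphere and from the spleen. In the first line a Cre recombinase under the Cx3cr1 promoter switches on tdTomato, and in the second the Itgax promoter drives the yellow fluorescent protein. Both promoters are also active in some other macrophages, monocytes or dendritic cells, so each group is a reporter-positive gate and not a pure lineage. How long after ischemia cells were taken, and whether spleen donors had ischemia, is not stated in the labels. Nor is it stated whether each library is 1 animal, so that p-values measure the spread between libraries, which may be technical.

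A cell that starts to divide first makes E-type cyclins, which with Cdk2 and the E2F factors switch on the genes of DNA replication. Replication origins are licensed when the origin recognition complex, Cdc6 and Cdt1 load the ring of Mcm2 to Mcm7, which Cdc45 and the GINS proteins turn into a working helicase, while ribonucleotide reductase and thymidylate synthase supply nucleotides. Later, cyclins A and B with Cdk1, the Aurora and Polo kinases and the spindle proteins carry the cell through mitosis, and the anaphase-promoting complex ends it. Microglia renew themselves slowly by division in the healthy brain and are known to divide more after injury, and dendritic cells of the spleen come from precursors that divide there and in bone marrow.

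Many members hold short promoter sequences that are known binding letters of cell cycle factors, and 6 promoters that hold them are shown here. Letters were searched on both strands of RefSeq promoters of GRCm38.p6, from 250 bases before to 50 after the transcription start, and 41 of the 51 members had an entry. Of these 41, 10 held E2F letters and 21 held CHR letters as defined next, and 7 (Birc5, Ccne1, E2f1, Mybl2, Nusap1, Tk1 and Tyms) held none of the letters searched. The E2F letters were TTTCCCGC, TTTCGCGC, TTTGCCGC and TTTGGCGC, the letters of the cell cycle homology region (CHR), which the MuvB complex binds, were TTTGAA and TTCGAA, and the letters of the NF-Y site were CCAAT. Of these TTCGAA reads the same on both strands, and E2F letters can overlap each other, as they do in Mcm6. E2F letters stood in 9 of 19 S-phase promoters (47.4%) and in 1 of 22 G2/M promoters (4.55%), against 2.6% of all 27025 genes with an entry. CHR letters stood in 4 of 19 S-phase promoters (21.1%) and in 17 of 22 G2/M promoters (77.3%), against 21.7% of all genes, so that the S-phase share was close to that of all genes. CCAAT stood in 68.4% of S-phase, 86.4% of G2/M and 41.1% of all promoters. Among the 11544 genes that were both tested and had an entry the shares were 4.46% for E2F, 16.8% for CHR and 42.4% for CCAAT. A match describes letters only and shows no binding.

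The sequences printed are the 150 bases before the start, 5′ to 3′ on the strand of the gene, of the 3 members per phase with the largest ischemic over control difference in microglia among those with 1 window that hold E2F letters (S-phase) or CHR letters (G2/M) there. The start is that of RefSeq, which can lie well away from the gene starts given further on. For E2f1, on the minus strand, the window was 154569377 to 154569676 while the gene starts at 154569892. For Cdc6, on the plus strand, it was 98907901 to 98908200 while the gene starts at 98907801. Letters near other starts, as those of E2f1, were not searched. Capitals mark E2F, CHR and CCAAT letters on either strand.
S-phase genes:
Orc1, chr4:108579304-108579453, plus strand: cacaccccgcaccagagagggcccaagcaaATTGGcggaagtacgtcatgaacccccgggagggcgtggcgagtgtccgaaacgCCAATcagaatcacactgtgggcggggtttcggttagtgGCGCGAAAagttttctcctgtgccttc
Mcm5, chr8:75109359-75109508, plus strand: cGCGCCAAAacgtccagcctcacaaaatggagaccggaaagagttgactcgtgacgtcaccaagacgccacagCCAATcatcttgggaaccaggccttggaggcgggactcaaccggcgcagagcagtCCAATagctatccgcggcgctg
Mcm6, chr1:128359706-128359855, minus strand: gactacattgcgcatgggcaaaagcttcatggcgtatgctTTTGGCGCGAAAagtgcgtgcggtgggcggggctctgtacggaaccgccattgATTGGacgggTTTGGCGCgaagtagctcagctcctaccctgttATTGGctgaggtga
G2/M genes:
Ube2c, chr2:164769779-164769928, plus strand: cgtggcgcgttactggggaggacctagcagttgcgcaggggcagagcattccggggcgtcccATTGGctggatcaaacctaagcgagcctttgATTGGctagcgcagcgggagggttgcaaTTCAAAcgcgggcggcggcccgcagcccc
Mki67, chr7:135716380-135716529, minus strand: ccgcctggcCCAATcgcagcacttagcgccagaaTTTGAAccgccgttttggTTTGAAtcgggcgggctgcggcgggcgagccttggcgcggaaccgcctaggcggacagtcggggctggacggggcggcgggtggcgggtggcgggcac
Cdk1, chr10:69352913-69353062, minus strand: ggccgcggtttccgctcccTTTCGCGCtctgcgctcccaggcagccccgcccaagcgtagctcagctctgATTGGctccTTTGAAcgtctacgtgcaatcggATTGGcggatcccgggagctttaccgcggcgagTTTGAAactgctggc
In Orc1 the single E2F match, GCGCGAAA, is TTTCGCGC on the other strand and lies between CCAAT letters and the start. Ube2c holds TTTGAA on the other strand, as TTCAAA. Mki67 and Cdk1 each hold TTTGAA at 2 places, and Cdk1 was the member of the G2/M set that also held E2F letters. In this shorter window E2F letters stood in 5 of 19 S-phase and 1 of 22 G2/M promoters, and CHR letters in 2 of 19 and 8 of 22, against 1.44% and 11.2% of all genes.

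Each library held 31569304 to 48245164 counted reads. Levels are given in CPM, each gene's share of the reads of a library scaled by TMM factors, and fold changes are on the log2 scale with the standard error (SE) of the fit. The 9 microglial markers, Tmem119 and P2ry12 among them, were all detected in both microglia groups, and their summed level was 29800 to 35900 CPM in control and 22200 to 31900 CPM in ischemic libraries. Brain CD11c libraries held 550 to 1500 CPM of 9 markers of conventional dendritic cells, 1110 to 1780 CPM of 7 monocyte markers and also 9300 to 10100 CPM of the microglial markers. Spleen CD11c libraries held 606 to 1190 CPM of dendritic cell markers beside 6990 to 11400 CPM of B and plasma cell, 64.3 to 3560 CPM of erythroid, 189 to 831 CPM of neutrophil and 133 to 370 CPM of T and NK cell markers. In bulk RNA a lower share of dividing cells and less RNA of these genes per cell cannot be told apart.

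Some libraries stood apart from others of their group in these genes. Control microglia replicate 3 was the highest of the 4 control libraries for 28 of 28 G2/M and 18 of 23 S-phase members, against 22.2% of all genes tested, and its level was 2.86 times (G2/M) and 1.46 times (S-phase) the mean of the other 3 by the median member. Brain CD11c replicates 1 and 2 were both above replicates 3 and 4 for 28 of 28 G2/M and 21 of 23 S-phase members, against 30.4% of all genes. The median ratio of replicates 1 and 2 to replicates 3 and 4 was 3.44 for G2/M and 2.35 for S-phase members. Their titles differ in form, since replicates 1 and 2 carry the reporter's name and 3 and 4 a letter and number code whose meaning is not given. Genes with any count numbered 19379 and 19482 in brain replicates 1 and 2 and 17932 and 16941 in 3 and 4, the fewest of the 16 libraries. Whether library quality has a part in the difference between the pairs was not tested. Spleen CD11c replicates 2 and 4 were both above 1 and 3 for 28 of 28 G2/M and 21 of 23 S-phase members, against 19.4% of all genes. Counts of called members and of other gene lists are given with and without the libraries of the first 2 of these patterns. The order of the groups is given for all libraries and for each brain pair, but not without control replicate 3. The brain pairs differ in these same members, and a fit with 1 pair leaves out the spread between the pairs. Calls and p-values with 1 brain pair, n = 2, thus describe that pair and are no independent test of the group.

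The mean log2 CPM over the 28 G2/M members was 1.74, 2.18, 3.34 and 1.76 in control microglia, 4.55, 4.28, 4.59 and 4.43 in ischemic microglia, 4.81, 4.74, 2.99 and 3.02 in brain CD11c cells and 4.50, 5.36, 4.78 and 5.23 in spleen CD11c cells. Over the 23 S-phase members it was 2.47, 2.67, 3.32 and 2.64 in control microglia, 4.61, 4.36, 4.53 and 4.39 in ischemic microglia, 5.05, 4.93, 3.72 and 3.86 in brain CD11c cells and 4.94, 5.36, 4.89 and 5.35 in spleen CD11c cells. Every control microglia library lay below every other library for the S-phase mean, and for the G2/M mean control replicate 3 lay above brain CD11c replicates 3 and 4. The G2/M mean minus the S-phase mean was −0.74, −0.49 and −0.87 in control replicates 1, 2 and 4 and −0.73 and −0.85 in brain CD11c replicates 3 and 4, and between −0.09 and 0.07 in the 4 ischemic microglia libraries. Control replicate 3 lay at 0.02, brain CD11c replicates 1 and 2 at −0.24 and −0.19, and the spleen libraries at −0.45, −0.01, −0.11 and −0.12, so that spleen replicate 1 was close to control replicate 2.

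**Figure D1:**
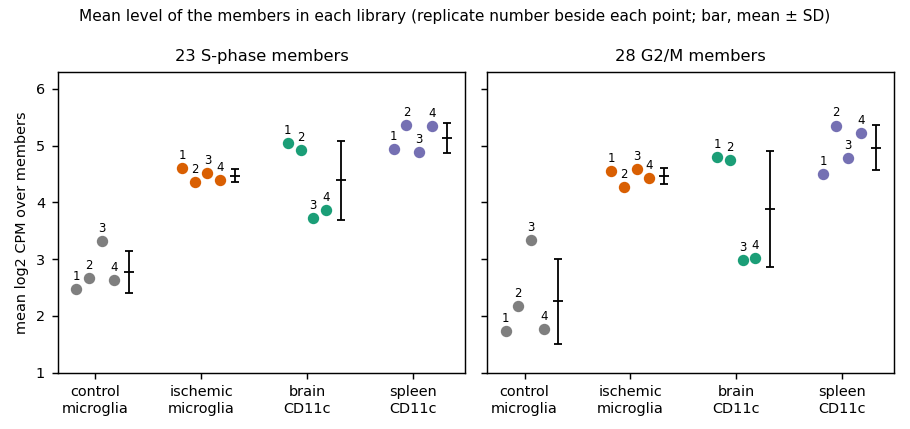
Mean log2 CPM over the 23 S-phase members (left) and the 28 G2/M members (right) in each library, numbered by replicate within its group, with the group mean and SD beside the points. Control microglia lie lowest for S-phase, and for G2/M control replicate 3, at 3.34, lies above brain CD11c replicates 3 and 4. Ischemic microglia lie close together, and brain CD11c replicates 1 and 2 lie above 3 and 4 in both panels.

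In the comparison of ischemic with control microglia, which lie in the same mouse line and the same gate, nearly the whole set was higher after ischemia. Of the 23 S-phase members 22 were called higher and none lower, with a median log2 fold change of 1.57, and of the 28 G2/M members 28 were called higher, with a median of 2.07 (quasi-likelihood test in edgeR, with p adjusted by Benjamini-Hochberg under 0.05). Among all genes tested 17.7% were called higher, and the median log2 fold change of all genes was −0.05. A difference of at least 2-fold was called for 18 S-phase and 28 G2/M members, against 7.53% of all genes. For all 51 members the 4 ischemic libraries lay above the 4 control libraries without overlap, as they did for 19.9% of all genes. Without control replicate 3 the counts were 21 and 28 and the medians 1.81 and 2.58, with 14.1% of all genes called higher. Scaled by library totals in place of TMM, the median of all genes moved to −0.20 and the split of all called genes from 2889 higher and 2945 lower to 2140 and 4242, while 22 and 28 members were still called higher, with medians of 1.42 and 1.91. The largest difference was that of Orc1 among S-phase and Ccnb2 among G2/M members, and the smallest that of Cdk2 and Cenpa.

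Among the regulators of S phase entry, the kinase Cdk2 (ENSMUSG00000025358, chromosome 10, 128697939 to 128705031) was the member that missed the threshold. Cdk2 stood at 56.4, 47.9, 45.5 and 43.7 CPM in the 4 control libraries and at 58.6, 58.8, 57.1 and 63.1 CPM in the 4 ischemic libraries, a log2 difference of 0.30 ± 0.13 (SE; adjusted p = 0.0892, edgeR). The 2 groups did not overlap but lay close, and Cdk2 passed when these 2 groups were fitted alone (adjusted p = 0.00925). Cdk2 overlaps the gene Pmel on the other strand. Its activating partners were lower in level and differed more, with Ccne1 and Ccne2, the E-type cyclins, higher by 2.59 and 1.91. E2f1 (ENSMUSG00000027490, chromosome 2, 154559407 to 154569892), an activator of replication genes, stood at 3.42, 5.17, 8.66 and 5.81 CPM in control and 28.2, 20.1, 26.1 and 23.7 CPM in ischemic microglia. All ischemic values of E2f1 exceeded the highest control value, that of replicate 3, and E2f1 rose by 2.08 ± 0.32 (adjusted p = 0.000171). E2f8, an atypical E2F that represses the same genes, rose by 1.94.

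All 12 members that license origins or form the helicase rose in ischemic microglia, by 0.62 to 3.39. Orc1 (ENSMUSG00000028587, chromosome 4, 108579423 to 108614833), the large subunit of the origin recognition complex whose promoter is shown above, stood at 0.150, 0.231, 0.308 and 0.231 CPM in control microglia, which are 6, 9, 15 and 8 reads. In ischemic microglia Orc1 stood at 2.93, 2.42, 2.27 and 2.22 CPM, higher by 3.39 ± 0.39 (adjusted p = 1.12e-05). Orc1 was thus near the lower limit of what these libraries resolve in control cells and clearly present in all ischemic libraries. Cdc6 (ENSMUSG00000017499, chromosome 11, 98907801 to 98923940), which joins Orc1 at origins, stood at 0.350, 1.31, 1.75 and 0.867 CPM in control and 3.51, 2.44, 3.69 and 3.02 CPM in ischemic microglia. The lowest ischemic Cdc6 value lay above the highest control value, and the difference was 1.55 ± 0.49 (adjusted p = 0.0216). Cdt1 (ENSMUSG00000006585, chromosome 8, 122568015 to 122573554), the loading factor, stood at 18.4, 9.91, 13.5 and 14.7 CPM in control and 30, 39.6, 28.7 and 31 CPM in ischemic microglia, higher by 1.19 ± 0.19 (adjusted p = 0.000155). Reads of Cdt1 are uncertain, since the annotation places the gene Gm20388 over it on the same strand.

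The helicase subunit Mcm2 (ENSMUSG00000002870, chromosome 6, 88883474 to 88898780) stood at 20.6, 14.6, 22.2 and 18.2 CPM in control and 48.3, 43.5, 47.5 and 42.4 CPM in ischemic microglia. The control libraries were at most 22.2 CPM and the ischemic libraries at least 42.4 CPM, and Mcm2 rose by 1.26 ± 0.26 (adjusted p = 0.00137). Of the other subunits Mcm5 and Mcm6 rose by 1.65 and 1.57, Mcm4 and Mcm7 by 1.00 and 0.95, and Mcm3, which was already at 93.3, 77.2, 82.8 and 86.6 CPM in control microglia, by 0.62. Cdc45, Gins1 and Gins2, which complete the helicase, rose by 1.77, 1.24 and 1.77.

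The 6 members that make nucleotides or act at the replication fork all rose as well. Tk1 (ENSMUSG00000025574, chromosome 11, 117815526 to 117826092), thymidine kinase, stood at 2.97, 3.59, 6.97 and 2.89 CPM in control and 23.6, 22.2, 22.5 and 18.1 CPM in ischemic microglia, higher by 2.38 ± 0.32 (adjusted p = 5.43e-05). Tk1 was high in control replicate 3, which was still below all ischemic libraries, and it overlaps Afmid on the other strand. Pcna (ENSMUSG00000027342, chromosome 2, 132249162 to 132253314), the sliding clamp of the polymerases, stood at 78.7, 45.8, 53.3 and 53.2 CPM in control and 93.3, 79.7, 86.1 and 92.9 CPM in ischemic microglia, higher by 0.61 ± 0.18 (adjusted p = 0.0136). Here control replicate 1 was the high control library and lay just under the lowest ischemic value, and the annotated pseudogenes Pcna-ps1 and Pcna-ps2 could share its reads. Rrm2, the regulated subunit of ribonucleotide reductase, rose by 3.17, while its partner Rrm1 rose by 1.07. Tyms, thymidylate synthase, rose by 0.90, and Uhrf1, which carries DNA methylation to the new strand, by 2.40.

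The mitotic cyclins, Cdk1 and the mitotic transcription factors, 6 members, rose by 1.30 to 3.08. Ccnb2 (ENSMUSG00000032218, chromosome 9, 70407692 to 70421547), a B-type cyclin, stood at 2.05, 2.48, 7.38 and 2.89 CPM in control and 30.4, 32.8, 30.2 and 33 CPM in ischemic microglia, higher by 3.08 ± 0.44 (adjusted p = 8.82e-05). The highest control value of Ccnb2, that of replicate 3, lay far below all ischemic values. Foxm1 (ENSMUSG00000001517, chromosome 6, 128362967 to 128376146), an activator of G2/M genes, stood at 7.50, 9.25, 20.1 and 7.11 CPM in control and 28.1, 24.8, 29.1 and 26.2 CPM in ischemic microglia, higher by 1.30 ± 0.43 (adjusted p = 0.0271). For Foxm1 control replicate 3 came close to the ischemic range, and without that library the difference was 1.75. Tex52 and Gm44596 overlap Foxm1 on the same strand. Cdk1, the mitotic kinase, Ccna2, cyclin A, and Ccnb1, cyclin B, rose by 2.21, 2.38 and 2.32, and Mybl2, which recruits Foxm1 to CHR promoters, by 1.97.

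The mitotic kinases and checkpoint proteins, 6 members, rose by 1.72 to 2.74. Birc5 (ENSMUSG00000017716, chromosome 11, 117849251 to 117855743), the survivin subunit of the chromosomal passenger complex, stood at 1.60, 2.28, 6.27 and 1.76 CPM in control and 21.1, 20.5, 20.6 and 18.4 CPM in ischemic microglia, higher by 2.74 ± 0.47 (adjusted p = 0.000375). Plk1 (ENSMUSG00000030867, chromosome 7, 122159439 to 122169873), the Polo kinase, stood at 2.30, 3.89, 7.73 and 2.48 CPM in control and 16.1, 12.8, 15.5 and 10.1 CPM in ischemic microglia, higher by 1.72 ± 0.46 (adjusted p = 0.00821). In both genes control replicate 3 was the highest control library without reaching the ischemic range. The Aurora kinases Aurka and Aurkb rose by 1.83 and 2.10, and the spindle checkpoint proteins Bub1 and Bub1b by 2.42 and 2.12.

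Of the partners of the anaphase-promoting complex, Ube2c (ENSMUSG00000001403, chromosome 2, 164769898 to 164778822), its ubiquitin-conjugating enzyme, stood at 1.60, 2.28, 5.63 and 2.57 CPM in control and 19.8, 14.4, 18.8 and 16.8 CPM in ischemic microglia, higher by 2.52 ± 0.45 (adjusted p = 0.000545). Cdc20 (ENSMUSG00000006398, chromosome 4, 118432901 to 118437352), its activator, stood at 3.05, 4.33, 9.81 and 3.06 CPM in control and 17.6, 14.9, 18.4 and 15.1 CPM in ischemic microglia, higher by 1.70 ± 0.46 (adjusted p = 0.00957). The groups were apart in both genes, with control replicate 3 nearest to the ischemic range. Ube2c overlaps Tnnc2 and Cdc20 overlaps Elovl1, each on the other strand.

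The 6 chromosome and centromere proteins rose by 1.12 to 2.48. Mki67 (ENSMUSG00000031004, chromosome 7, 135689784 to 135716361), which encodes the proliferation marker Ki-67 and has the CHR letters printed above, stood at 15.6, 21.3, 55.3 and 11.9 CPM in control and 136, 137, 154 and 137 CPM in ischemic microglia, higher by 2.43 ± 0.51 (adjusted p = 0.00178). Top2a (ENSMUSG00000020914, chromosome 11, 98992943 to 99024189), the topoisomerase that untangles sister chromosomes, stood at 13.5, 19.7, 53.8 and 12.5 CPM in control and 111, 66.7, 125 and 103 CPM in ischemic microglia, higher by 2.02 ± 0.60 (adjusted p = 0.0161). Without control replicate 3, in which both genes were highest among controls, the differences were 3.09 for Mki67 and 2.72 for Top2a. Cenpe (ENSMUSG00000045328, chromosome 3, 135212537 to 135273611), a kinetochore motor, stood at 3.50, 3.41, 8.12 and 3.09 CPM in control and 27, 20.3, 28.2 and 26.4 CPM in ischemic microglia, higher by 2.48 ± 0.41 (adjusted p = 0.000269). Cenpa (ENSMUSG00000029177, chromosome 5, 30666777 to 30674830), the histone H3 variant that marks centromeres, stood at 15.3, 15.5, 17.7 and 11.1 CPM in control and 29.4, 28.9, 31.3 and 40.5 CPM in ischemic microglia, higher by 1.12 ± 0.19 (adjusted p = 0.000272). Cenpa was the G2/M member with the smallest difference, and control replicate 3 stood out little for it. Cenpf, a kinetochore protein, and Nusap1, a spindle protein, rose by 1.52 and 2.28.

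The 8 spindle and cytokinesis members rose by 1.34 to 2.32. Kif23 (ENSMUSG00000032254, chromosome 9, 61915905 to 61946774), a kinesin of the midzone, stood at 3.45, 4.07, 11.6 and 4.25 CPM in control and 22.1, 16.9, 25.1 and 22.6 CPM in ischemic microglia, higher by 1.88 ± 0.35 (adjusted p = 0.000819). Prc1 (ENSMUSG00000038943, chromosome 7, 80294450 to 80316259), which bundles midzone microtubules, stood at 4.52, 7.25, 20.1 and 4.85 CPM in control and 31.4, 23.9, 36.5 and 27.2 CPM in ischemic microglia, higher by 1.69 ± 0.52 (adjusted p = 0.0203). In both, control replicate 3 lay between the other control libraries and the ischemic ones, and Prc1 overlaps Rccd1 on the other strand. The spindle motor Kif11, the cytokinesis kinesin Kif20a, the spindle factor Tpx2 and the exchange factor Ect2 rose by 1.84, 2.04, 2.32 and 1.70. Hmmr, a spindle-associated hyaluronan receptor, rose by 2.15, and Stmn1, which destabilises microtubules, by 1.34.

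**Figure D2:**
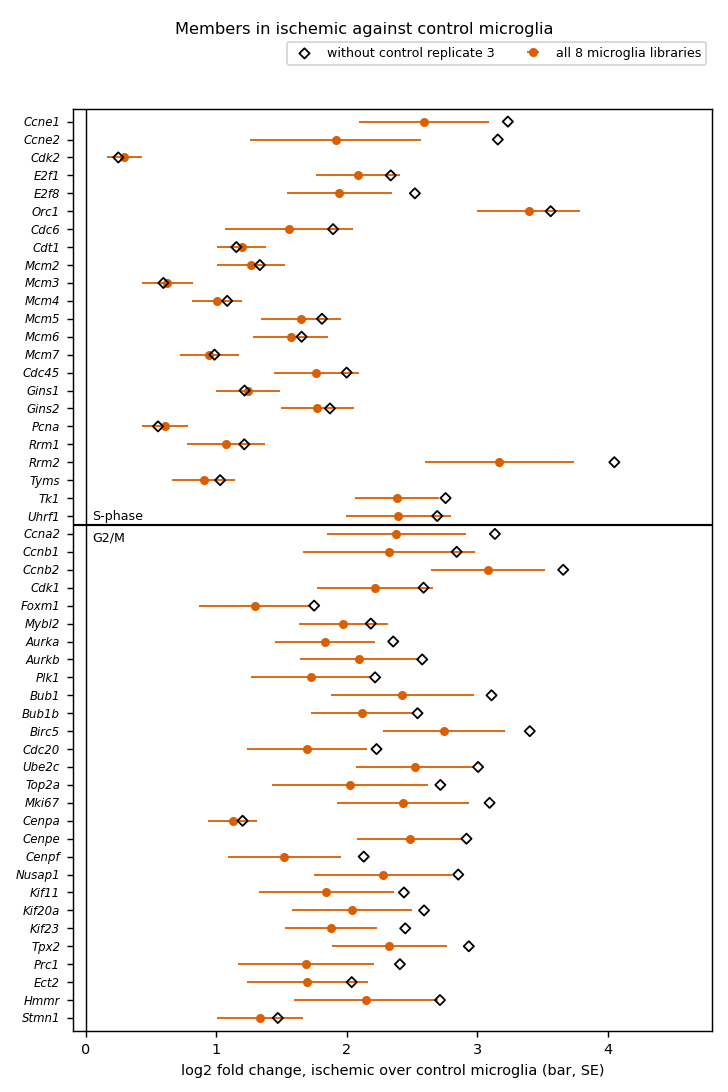
Log2 fold change of each member in ischemic over control microglia with its SE (circles) and without control replicate 3 (diamonds), S-phase genes above and G2/M genes below the line. All points lie to the right of 0, from 0.30 for Cdk2 to 3.39 for Orc1, and most G2/M diamonds lie to the right of their circles.

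Leaving out each of the 8 microglia libraries in turn, 43 of the 50 called members passed every time. The other 7 were Ccne2, Cdc6, Foxm1, Mcm3, Pcna, Prc1 and Top2a. Foxm1 failed with any of 6 libraries left out, at an adjusted p of 0.0528 to 0.0813, and Ccne2 with any of 6, at 0.0592 to 0.0928. Mcm3 failed with any of 5 left out, at 0.0529 to 0.0685, and without control replicate 3 its adjusted p was 0.0583. Cdc6, Top2a and Prc1 failed with any of 3 left out, at 0.0503 to 0.0595, 0.0501 to 0.0508 and 0.0606 to 0.0625, and Pcna failed without control replicate 2, at 0.0605. Without the filter on low counts Ccne2, Foxm1 and Prc1 missed the threshold, and with limma-voom Cdc6 did. Marker levels of other cell types were as follows. Dendritic cell markers summed to 35.0 to 50.4 CPM in control and 18.7 to 23.5 CPM in ischemic microglia, neutrophil markers to 0.0512 to 0.173 and 0.523 to 1.1 CPM, endothelial markers to 62.3 to 74.6 and 34 to 55.7 CPM, and B and plasma cell markers to 260.0 to 308 and 199 to 225 CPM, each without overlap. Overlapping ranges were found for monocyte markers (128 to 248 and 148 to 205 CPM), oligodendrocyte markers (84.6 to 127 and 122 to 147 CPM), astrocyte markers (160.0 to 184 and 177 to 205 CPM), erythroid markers (4.15 to 7.44 and 3.49 to 5.47 CPM) and T and NK cell markers (9.87 to 23.3 and 6.35 to 14.8 CPM). In each group 6 of 8 B and plasma cell, 7 of 8 erythroid and 9 of 9 neutrophil markers were under 1 CPM in all libraries. Of T and NK cell markers this held for 8 of 9 in control and 7 of 9 in ischemic microglia. These sums thus rest on few genes or low levels, and 0 of 8 B and plasma cell markers were called different. The part of these cell types in the result was not tested.

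Levels of different genes were compared per exon length, as RPKM (TMM-scaled CPM per kilobase of exon union). The union joins the exons of all annotated transcripts, used or not, so the order of genes depends on the annotation. In ischemic microglia Cenpa and Ccnb2 had mean levels of 32.5 and 31.6 CPM, over unions of 5860 and 1531 bases. The order with other transcript lengths was not tested. Among S-phase members Pcna and Mcm3 had the highest levels in both microglia groups, at 24.1 ± 6.0 and 22.6 ± 1.8 RPKM in control and 36.7 ± 2.69 and 34.9 ± 2.51 RPKM in ischemic microglia (SD, n = 4). Orc1 and Cdc6 were lowest in ischemic microglia, at 0.708 ± 0.0932 and 0.605 ± 0.107 RPKM. Among G2/M members Ccnb2 led in ischemic microglia at 20.6 ± 0.975 RPKM. Mki67 led in spleen CD11c cells at 26.9 ± 8.32 RPKM, before Top2a at 20.1 ± 5.56 RPKM, a gap smaller than the SD of Mki67. Cenpa led in brain CD11c cells, at 13.9 ± 3.36 RPKM, close to Ccnb2 at 13.5 ± 7.57 RPKM, a gap smaller than their spread. With brain replicates 1 and 2 alone Ccnb2 led at 20.0 RPKM, before Mki67 at 16.8 and Cenpa at 16.7, and with 3 and 4 alone Cenpa led at 11.1 before Ccnb2 at 6.91. In control microglia Top2a, Cdc20 and Mki67 led the G2/M members at 2.76 ± 2.17, 2.71 ± 1.72 and 2.59 ± 1.98 RPKM, which did not differ beyond their spread.

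**Figure D3:**
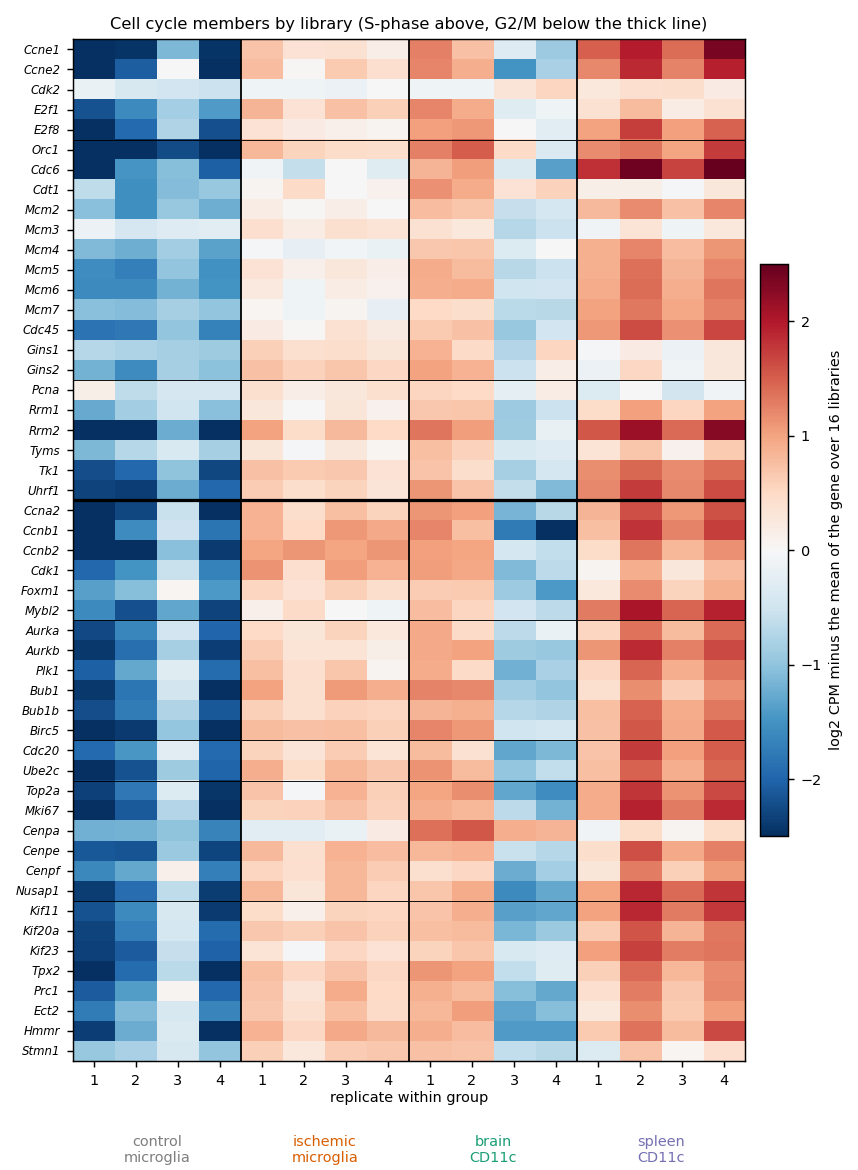
Log2 CPM of each member in each of the 16 libraries, minus the mean of that gene over all libraries, with S-phase genes above and G2/M genes below the thick line and thin lines between roles. Control microglia replicates 1, 2 and 4 are lowest for most members, and replicate 3 is higher in the G2/M block. Brain CD11c replicates 3 and 4 are lower than 1 and 2 for most members, with Cdk2 the other way round.

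CD11c cells and microglia of the same ischemic hemisphere were compared next, the comparison the series was made for. In this contrast mouse line and cell population differ together and cannot be told apart. With all 4 brain CD11c libraries, 1 of 23 S-phase members (Cdt1) and 1 of 28 G2/M members (Cenpa) were called higher and none lower, while 19.7% of all genes were called higher and 19.1% lower. The median log2 fold change was 0.02 for S-phase and −0.36 for G2/M members and 0 for all genes. Scaled by library totals, 3 S-phase members and 1 G2/M member were higher, Cdk2 and Mcm4 joining Cdt1, with 3964 higher and 2388 lower among all genes in place of 3213 and 3130. The medians with all 4 libraries join libraries that lay on opposite sides of ischemic microglia. With replicates 1 and 2 alone, 10 S-phase members and 1 G2/M member were called higher and none lower (medians 0.51 and 0.25; background 20.9% higher and 20.2% lower). With replicates 3 and 4 alone, 1 S-phase and 1 G2/M member were called higher and 11 and 22 lower (medians −0.62 and −1.56; background 19.8% higher and 21% lower).

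Cenpa, the centromeric histone, stood at 92, 104, 66 and 63.7 CPM in brain CD11c replicates 1 to 4, and all 4 values lay above the ischemic microglia, which were at most 40.5 CPM. The difference was 1.32 ± 0.19 (SE; edgeR adjusted p = 3.19e-05), and it passed with either pair of brain libraries, at 1.59 and 1.01. Groups without overlap in that direction were found for 14.9% of all genes. Cdt1 stood at 63.6, 54.4, 36.6 and 42.6 CPM in brain CD11c cells, where replicate 3 fell within the range of ischemic microglia. Its difference was 0.61 ± 0.18 (adjusted p = 0.0145), with 0.87 in replicates 1 and 2 and 0.31, not called, in 3 and 4.

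Cdk2 was unlike the other members in the order of the brain libraries, with 58.9, 59.3, 79.3 and 92.2 CPM in replicates 1 to 4, so that 3 and 4 were the higher pair. Without brain replicate 1 or 2 it passed, at adjusted p of 0.0285 to 0.029. It was called in replicates 3 and 4 alone (log2 0.54, adjusted p = 0.00127) and with all 4 libraries the difference was 0.29 ± 0.13 (adjusted p = 0.0959). Gins1 was the other member for which replicates 1 and 2 were not both above 3 and 4, since its pairs overlapped, at 13.7, 10.4, 4.46 and 10.8 CPM.

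For S-phase members the pairs of libraries fell on both sides of ischemic microglia. Calls with 1 pair describe that pair, n = 2, and not the group. Mcm2 stood at 72.2, 68.4, 28.6 and 31.2 CPM in brain CD11c replicates 1 to 4, the first pair above and the second below all ischemic microglia. It was called higher with replicates 1 and 2 (0.63, adjusted p = 0.00442) and lower with 3 and 4 (−0.59, adjusted p = 0.0116). Mcm5, Mcm6, Mcm7 and Rrm1 likewise passed in opposite directions, Mcm6 with 0.81 and −0.59. Orc1, at 3.95, 4.76, 2.30 and 1.27 CPM, and Cdc6, at 6.71, 7.79, 2.88 and 1.42 CPM, were called higher with replicates 1 and 2 and not called with 3 and 4. E2f1 stood at 36.5, 29.7, 12.7 and 14.5 CPM and Tk1 at 23.1, 19.2, 7.86 and 10.3 CPM, and both were called lower with replicates 3 and 4 and not called with 1 and 2. Pcna, at 104, 99.96, 59.5 and 80.3 CPM, was called with neither pair. Mcm4 passed as higher without brain replicate 3 or 4, at adjusted p of 0.00708 to 0.0399, and Mcm3 as lower without brain replicate 1, at 0.0257.

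For G2/M members other than Cenpa, replicates 1 and 2 lay near ischemic microglia and 3 and 4 below them. Mki67 stood at 174, 164, 58.3 and 40.7 CPM in replicates 1 to 4 and Top2a at 134, 152, 27.8 and 23.2 CPM, and with replicates 3 and 4 the log2 differences from ischemic microglia were −1.49 and −1.98. Ccnb1 had the widest gap between the pairs, 9.18 times, with 8.66, 6.22, 1.052 and 0.570 CPM, and Cenpa the narrowest, 1.51 times. Ccnb2 stood at 31, 30.3, 11.3 and 9.90 CPM, Foxm1 at 30.2, 30.6, 10.3 and 7.15 CPM and Birc5 at 28.8, 26.2, 8.72 and 9.08 CPM. In each of these the second pair was below all ischemic microglia libraries. Plk1 stood at 18.3, 13.3, 4.12 and 5.44 CPM, Ube2c at 23, 18.2, 5.34 and 6.83 CPM and Cdc20 at 20.8, 15.6, 4.82 and 5.44 CPM. Cenpe stood at 27.5, 28.2, 10.5 and 9.37 CPM, Kif23 at 25.8, 28.3, 13.3 and 14 CPM and Prc1 at 35.6, 33.1, 9.10 and 7.81 CPM. The same order of the pairs held in all of these.

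**Figure D4:**
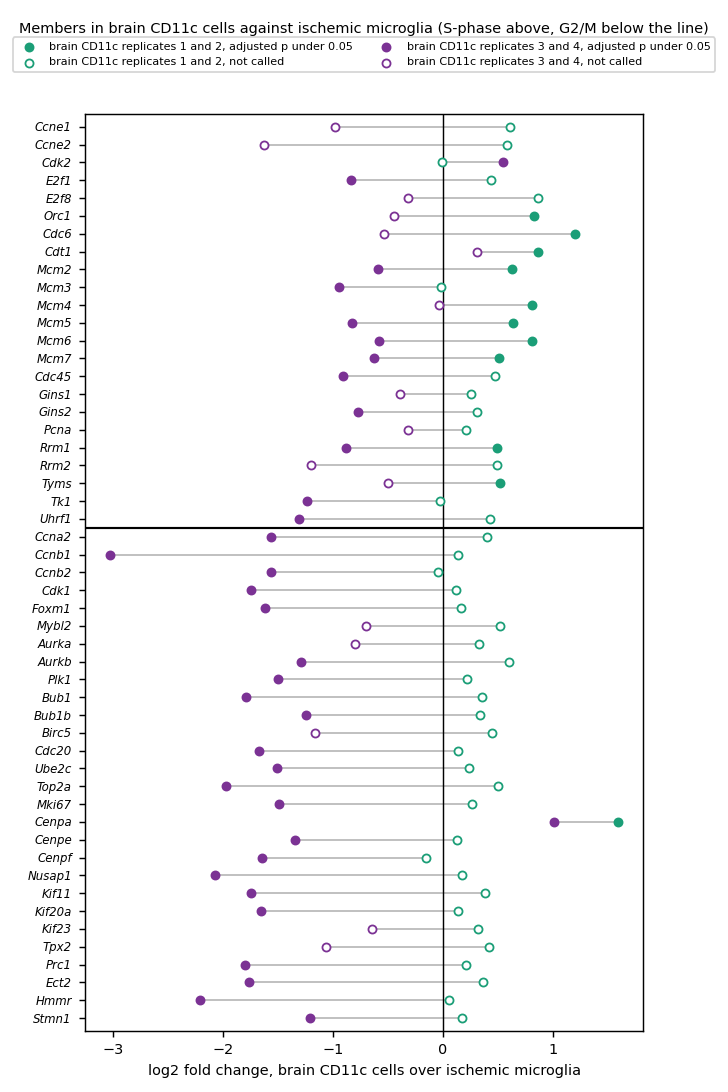
Log2 fold change of each member in brain CD11c cells over ischemic microglia, with replicates 1 and 2 alone (green) and 3 and 4 alone (purple), filled where the adjusted p was under 0.05. Most G2/M genes are called lower with the second pair, from −1.21 for Stmn1 to −3.03 for Ccnb1, and Cenpa is to the right of 0 with both pairs.

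Markers of several cell types differed between the same pairs of brain libraries. Dendritic cell markers summed to 550 to 817 CPM in replicates 1 and 2 and 1480 to 1500 CPM in 3 and 4, monocyte markers to 1410 to 1780 against 1110 to 1120 CPM, and oligodendrocyte markers to 157 to 174 against 284 to 322 CPM. Microglial markers were 9990 to 10100 CPM in the first pair and 9300 to 9360 CPM in the second. Neutrophil markers were at 21.8 to 29.7 CPM against 9.84 to 10.6 CPM, B and plasma cell markers at 285 to 294 against 224 to 263 CPM, and endothelial markers at 58.4 to 62 against 68.8 to 79.4 CPM. Erythroid, astrocyte and T and NK cell markers overlapped between the pairs. Whether these cell types have a part in the difference between the pairs was not tested.

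Brain CD11c cells were then set against spleen CD11c cells, within the same mouse line. Tissue and the make-up of the sorted cells differ together between these groups and cannot be told apart. B and plasma cell markers summed to 224 to 294 CPM in brain and 6990 to 11400 CPM in spleen libraries. Microglial markers summed to 9300 to 10100 CPM in brain and 198 to 281 CPM in spleen. Whether the spleen donors had ischemia is not stated. Of the 23 S-phase members 11 were lower and 2 higher in brain, and of the 28 G2/M members 7 were lower and 1 higher, with medians of −0.77 and −0.90. Among all genes 33% were called lower and 31.2% higher, beside 25% of G2/M members lower. That share depended on the setting, at 50% with DESeq2 (33.4% of all genes), 75% with limma-voom (35.9%), 67.9% with library totals (43.5%), 7.14% without the filter on low counts (19.4%), 57.1% without brain replicate 1 (33.4%) and 10.7% without brain replicate 4 (34%). With brain replicates 1 and 2 alone the counts were 6 lower and 5 higher S-phase and 1 lower and 1 higher G2/M members (background 34.4% lower and 30.9% higher). With replicates 3 and 4 alone they were 18 lower and 0 higher S-phase and 27 lower and 1 higher G2/M members (background 34.5% lower and 27.6% higher). Scaling by library totals in place of TMM put the median of all genes at −0.30 in place of −0.04, with 3807 higher and 7113 lower among all genes in place of 5097 and 5390, and gave 17 lower and 0 higher S-phase and 19 lower and 1 higher G2/M members.

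Cdc6 had the lowest value of the S-phase members. It stood at 13.4, 20.2, 12.1 and 24.5 CPM in the 4 spleen libraries, all above the brain libraries, a log2 difference of −1.90 ± 0.47 (SE; edgeR adjusted p = 0.00208). Groups without overlap in that direction were found for 29.9% of all genes. Mcm7 and Mcm4, at −1.14 ± 0.22 and −0.68 ± 0.19, Cdc45, at −1.25 ± 0.31, and Tk1, at −1.20 ± 0.31, were also lower in brain, and all of them and Cdc6 passed with either pair of brain libraries. Spleen values of Tk1 were 31.7, 38, 32.2 and 37.4 CPM. Mcm2 stood at 74.9, 97.1, 70.7 and 98.7 CPM in spleen (−0.77 ± 0.25, adjusted p = 0.0146), a call that was lost with brain replicates 1 and 2 alone (−0.28, adjusted p = 0.141). Ccne1, Mcm5, Mcm6, Rrm2 and Uhrf1 were called lower as well and were not called with that pair. Mcm5, Mcm6 and Rrm2 also missed the threshold when brain replicate 3 or 4 or spleen replicate 2 or 4 was left out, at adjusted p of 0.0584 to 0.0899, 0.053 to 0.0666 and 0.0763 to 0.101. When these 2 groups were fitted alone, Mcm2, Mcm5 and Mcm6 were not called (edgeR adjusted p = 0.0593, 0.0918 and 0.0844). Without the filter on low counts Mcm5, Mcm6 and Rrm2 were not called (adjusted p = 0.0949, 0.0745 and 0.105).

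Against the direction of most S-phase members, Cdt1, at 31.5, 31.7, 28 and 35 CPM in spleen, was higher in brain by 0.64 ± 0.18 (adjusted p = 0.0056), and Pcna, at 56.1, 70, 51.5 and 66.8 CPM in spleen, by 0.49 ± 0.18 (adjusted p = 0.023). For Cdt1 all brain libraries lay above all spleen libraries, and for Pcna brain replicate 3 lay within the spleen range. Scaled by library totals, neither passed (adjusted p = 0.0654 and 0.25), and with brain replicates 3 and 4 alone neither passed (adjusted p = 0.188 and 0.492). Pcna was also not called without brain replicate 1 or 2 or without spleen replicate 1 or 3, at adjusted p of 0.106, 0.0933, 0.0582 and 0.0727. Orc1 stood at 3.78, 4.21, 3.28 and 5.63 CPM in spleen, E2f1 at 20.4, 27, 17.8 and 20.4 CPM and Cdk2 at 75.9, 85.4, 86.5 and 73.7 CPM, and none of these differences was called. Cdk2 was called lower in brain with replicates 1 and 2 alone, at −0.44. With replicates 3 and 4 alone Orc1 and E2f1 were called lower in brain, E2f1 at −0.69, and with 1 and 2 alone E2f1 was called higher, at 0.63.

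Mybl2, the MuvB-bound activator, had the lowest value of the G2/M members (−1.55 ± 0.32, adjusted p = 0.000473), with 5.74, 4.88, 2.38 and 2.12 CPM in brain and 8.29, 14, 9.26 and 12.9 CPM in spleen. It was the G2/M member that was called lower with either pair of brain libraries. Cenpa went the other way, at 33.3, 48.9, 37.2 and 48.6 CPM in spleen and higher in brain by 0.95 ± 0.18 (adjusted p = 0.000277), called with either pair and without overlap. Groups without overlap in that direction were found for 25.3% of all genes. Mki67 stood at 176, 348, 226 and 335 CPM in spleen (−1.31 ± 0.49, adjusted p = 0.028), and Kif23 at 35.7, 57, 42.3 and 44 CPM (−1.14 ± 0.34, adjusted p = 0.0087). Both calls were lost with brain replicates 1 and 2 alone, at adjusted p of 0.252 and 0.124. Mki67 also failed without brain replicate 3 (0.0755) or 4 (0.072) or spleen replicate 2 (0.0678) or 4 (0.0552), and without the filter on low counts (0.0842).

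Aurkb, Cdc20, Nusap1 and Kif11 completed the members called lower, at −1.19, −1.34, −1.48 and −1.43. Aurkb and Kif11 missed the threshold without brain replicate 3 or 4 or spleen replicate 2, at adjusted p of 0.0661 to 0.0676 and 0.0536 to 0.0595, and Nusap1 without brain replicate 4, at 0.0517. Aurkb also missed it when brain and spleen CD11c cells were fitted alone (edgeR adjusted p = 0.0508). Without the filter on low counts Aurkb, Cdc20, Nusap1 and Kif11 were not called (adjusted p = 0.0773, 0.0548, 0.0617 and 0.0703). Cdc20 stood at 19.6, 40.2, 24.3 and 34.1 CPM in spleen and overlapped the brain libraries. Spleen values of Top2a were 129.8, 234, 148 and 213 CPM, those of Ccnb2 21.1, 38.6, 27.4 and 33.9 CPM and those of Foxm1 23.1, 44.1, 28.5 and 35.8 CPM. Spleen replicates 2 and 4 were the high pair in each of them. Birc5 stood at 20.3, 36, 23.6 and 35.8 CPM, Plk1 at 13.8, 26.4, 18.1 and 24.4 CPM and Ube2c at 17.7, 29.3, 19.9 and 28.5 CPM. Cenpe stood at 21.1, 47.2, 29.6 and 36.9 CPM and Prc1 at 25.8, 46.5, 30.8 and 43.8 CPM. None of these 8 was called with all libraries, and all 8 were called lower in brain with replicates 3 and 4 alone. Beside the high pair of spleen libraries, B and plasma cell markers summed to 8490 to 11400 CPM in replicates 2 and 4 and 6990 to 7410 CPM in 1 and 3, and dendritic cell markers to 606 to 877 CPM against 1180 to 1190 CPM. Their part in the level of the members was not tested.

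**Figure D5:**
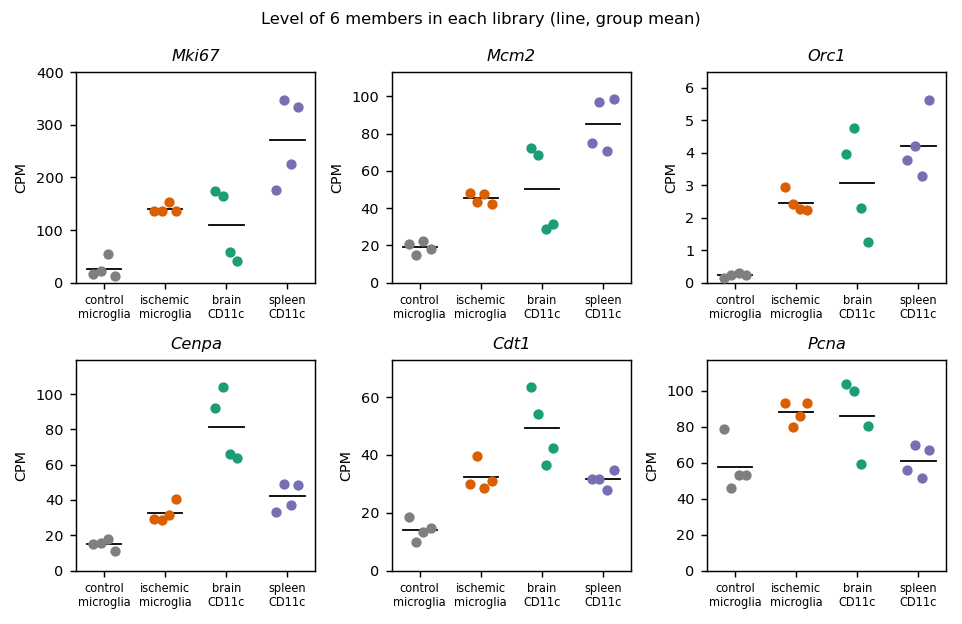
CPM of Mki67, Mcm2, Orc1, Cenpa, Cdt1 and Pcna in each library of the 4 groups, with the group mean as a line, on linear axes from 0. Cenpa is highest in all 4 brain CD11c libraries, from 63.7 to 104 CPM, while Mki67, Mcm2 and Orc1 reach their highest values in spleen CD11c cells.

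The groups taken outside the ischemic hemisphere, spleen CD11c cells and control microglia, marked the ends of the range for most members. Line, tissue and population differ together in this contrast. Spleen CD11c cells were higher for 21 of 23 S-phase members and 28 of 28 G2/M members, with medians of 2.17 and 2.73, against 37.1% of all genes called higher and a median of 0.11. The exceptions were Pcna (0.08 ± 0.18, adjusted p = 0.697) and Mcm3 (0.41 ± 0.20, adjusted p = 0.078, which passed with library totals at 0.63). For 22 S-phase and 28 G2/M members all spleen libraries lay above all control libraries, as they did for 38.4% of all genes. Rrm2 had the largest difference of the S-phase members, 4.35 ± 0.59, and Mybl2 of the G2/M members, 3.56 ± 0.35, while Stmn1 had the smallest of the G2/M members, 1.05 ± 0.33. Without control replicate 3 the counts stayed at 21 and 28, with 36.3% of all genes called higher. Scaled by library totals they were 22 and 28, with 7406 higher and 4184 lower among all genes in place of 6059 and 5186.

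With all libraries, control microglia had the lowest mean CPM for all 51 members. Spleen CD11c cells had the highest mean for 17 S-phase and 23 G2/M members, ischemic microglia for 5 and 4, and brain CD11c cells for 1 and 1, which were Cdt1 and Cenpa. For 22 of 28 G2/M members the order from low to high was control microglia, brain CD11c cells, ischemic microglia, spleen CD11c cells. For 11 of 23 S-phase members ischemic microglia and brain CD11c cells changed places, and 6 kept the order of most G2/M members. The place of brain CD11c cells turned with the pair of libraries. With replicates 1 and 2 alone the order of most G2/M members held for 1 of 28, and for 20 of 28 brain CD11c cells lay between ischemic microglia and spleen CD11c cells, as for 13 of 23 S-phase members. With replicates 3 and 4 alone the order of most G2/M members held for 17 of 28 G2/M and 16 of 23 S-phase members. For 6 G2/M members and 1 S-phase member brain CD11c cells lay below control microglia. The control means include replicate 3, and this order was not computed without it. For Prc1 and Cenpf, among these 6 G2/M members, the mean of brain replicates 3 and 4 was 8.46 and 6.24 CPM. The highest of control replicates 1, 2 and 4 was lower, at 7.25 and 5.25 CPM. For Ccnb1, Foxm1, Ect2 and Hmmr the brain mean lay within the range of control replicates 1, 2 and 4. With all 4 libraries these neighbours in the order, brain CD11c cells and ischemic microglia, were called different for Cdt1 and Cenpa and for no other member.

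Other genes of the cell cycle, outside the 51 members, were counted in the same fits. Of 26 other S-phase genes 19 were higher and 1 lower in ischemic than in control microglia, and of 28 other G2/M genes 25 were higher and 1 lower, against 17.7% higher and 18% lower among all genes. Without control replicate 3 these counts were 19 and 1, and 26 and 1. The exceptions were Cdca7, at 16.2, 16.7, 18.9 and 18.2 CPM in control and 11.1, 5.79, 9.41 and 6.03 CPM in ischemic microglia (log2 −1.11, adjusted p = 0.000924, edgeR), and Hjurp, the chaperone that places Cenpa at centromeres, which fell by 0.76 (adjusted p = 0.000258). Chaf1b, a histone chaperone of replication, and Hells, a chromatin remodeller, had the lowest adjusted p of the S-phase list, with 2.41 and 2.29. The condensin subunit Smc4 and the spindle protein Tacc3 had the lowest of the G2/M list, with 1.38 and 1.85. Between brain CD11c cells and ischemic microglia 2 of 26 and 0 of 28 were higher and none lower, against 19.7% and 19.1% of all genes. With brain replicates 1 and 2 alone 11 and 1 were higher and 0 lower, and with 3 and 4 alone 1 and 0 were higher and 10 and 21 lower. Between brain and spleen CD11c cells 17 of 26 were lower and 0 higher, and 9 of 28 lower and 1 higher, the last being Cks2 with at most 2.12 CPM in any library. Among all genes 33% were lower and 31.2% higher, so that the share of G2/M genes lower was near that of all genes. With brain replicates 1 and 2 alone 12 and 4 were lower and 0 and 2 higher, and with 3 and 4 alone 24 and 25 were lower and 0 and 1 higher. Hjurp was also lower in brain than in spleen CD11c cells (log2 −1.30), opposite in sign to Cenpa. Between spleen CD11c cells and control microglia 25 of 26 and 25 of 28 were higher, against 37.1% of all genes, and without control replicate 3 25 and 27.

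Of 19 genes of G1 entry and the E2F and RB network, 5 were higher and 1 lower in ischemic than in control microglia, against 17.7% and 18% of all genes, and 3 higher and 2 lower without control replicate 3. E2f2, an activator E2F, was the clearest, at 9.47, 9.37, 9.97 and 8.41 CPM in control and 25.8, 24.6, 22.8 and 26.6 CPM in ischemic microglia (log2 1.42, adjusted p = 3.1e-07). Its dimer partner Tfdp1 rose by 0.94, whereas Ccnd1, cyclin D1, fell by 0.62. Between brain CD11c cells and ischemic microglia 5 were higher and 3 lower (19.7% and 19.1% of all genes), 8 and 3 with brain replicates 1 and 2 alone and 4 and 3 with 3 and 4 alone, led by Ccnd2, cyclin D2, at 4.61, 7.81, 6.46 and 6.91 CPM in ischemic microglia and 56.7, 60.8, 154 and 148 CPM in brain CD11c cells (log2 4.03, adjusted p = 9.94e-08). In contrast to the members, Ccnd2 was higher in brain replicates 3 and 4 than in 1 and 2. Between brain and spleen CD11c cells 4 were higher and 4 lower (31.2% and 33% of all genes), 6 and 6 with replicates 1 and 2 alone and 4 and 8 with 3 and 4 alone. Between spleen CD11c cells and control microglia 12 were higher and 5 lower (37.1% and 31.7% of all genes), and 12 and 4 without control replicate 3.

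Of 18 CDK inhibitors and arrest genes, 10 were higher and 2 lower in ischemic than in control microglia, against 17.7% and 18% of all genes, and 7 and 2 without control replicate 3. Cdkn1a, which encodes p21, stood at 114, 117, 142 and 122 CPM in control and 400.1, 368, 424 and 397 CPM in ischemic microglia (log2 1.69, adjusted p = 3.41e-07), so that an inhibitor of Cdk2 rose beside the members. Cdkn2d and Pkmyt1, which restrain Cdk4 and Cdk1, rose by 1.25 and 1.67, and Cdkn1c, which encodes p57, fell by 1.51. Cdkn1a was 443, 368, 346 and 341 CPM in brain CD11c cells and 6.64, 8.10, 8.58 and 5.19 CPM in spleen CD11c cells, the clearest of 9 higher and 4 lower genes in that comparison (31.2% and 33% of all genes; log2 5.71, adjusted p = 1.01e-13). Between brain CD11c cells and ischemic microglia 2 were higher and 3 lower, against 19.7% and 19.1% of all genes. Counts in brain over ischemic microglia were 4 higher and 4 lower with replicates 1 and 2 alone and 2 and 4 with 3 and 4 alone, and over spleen CD11c cells 7 and 3, and 8 and 5. Of those higher in brain CD11c cells than in ischemic microglia, Cdkn1b, which encodes p27, had the lowest adjusted p (log2 1.34, adjusted p = 4.85e-05), at 126, 143, 247 and 288 CPM in brain CD11c replicates 1 to 4, highest in the 2 libraries in which the members were lowest. Between spleen CD11c cells and control microglia 9 were higher and 5 lower (37.1% and 31.7% of all genes), also without control replicate 3.

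Of 12 tested growth signals of microglia and dendritic cells, 4 were higher and 1 lower in ischemic than in control microglia, against 17.7% and 18% of all genes, with the same counts without control replicate 3. Csf1, the growth factor of macrophages, stood at 284, 137, 181 and 138 CPM in control and 955, 679, 849 and 701 CPM in ischemic microglia (log2 2.11, adjusted p = 2.63e-06). Its receptor Csf1r was not called in that comparison (log2 −0.21, adjusted p = 0.246). Csf2rb, the shared beta chain of the GM-CSF receptor, rose by 1.15 and was higher again in brain CD11c cells than in ischemic microglia, by 1.30. Between brain CD11c cells and ischemic microglia 5 were higher and 3 lower (19.7% and 19.1% of all genes), 4 and 3 with brain replicates 1 and 2 alone and 6 and 4 with 3 and 4 alone. Between brain and spleen CD11c cells 5 were higher and 2 lower (31.2% and 33% of all genes), 5 and 4 with the first pair and 6 and 2 with the second. Between spleen CD11c cells and control microglia 6 were higher and 4 lower (37.1% and 31.7% of all genes), also without control replicate 3. Csf1 was lower in brain CD11c cells than in ischemic microglia (log2 −1.72) and higher than in spleen CD11c cells (log2 4.86). Flt3, the receptor that drives dendritic cell growth, stood at 1.68, 2.34, 1.046 and 2.54 CPM in ischemic microglia, 116, 161, 404 and 351 CPM in brain CD11c cells and 236, 185, 291 and 122 CPM in spleen CD11c cells.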

How the data were processed

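RNA-seq read counts of 50600 genes in 16 libraries, 4 in each of 4 groups, were analysed. The authors deposited raw counts per gene, not normalized. Reads were checked with FastQC 0.11.5 and aligned with STAR 2.5.3a to GRCm38, per the submitters' processing notes. The counting program, its strand setting and its annotation are not named in the labels or notes, so reads of overlapping genes (14 members overlap a protein-coding gene) and of near-identical copies (5 members have a named copy) are uncertain. Libraries held 31569304 to 48245164 counts.

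Libraries were grouped by their labels. Genes with too few counts were removed with filterByExpr, which left 16345, and 4 contrasts were tested over all 16 libraries with the quasi-likelihood test of edgeR 4.0.16 (TMM scaling, robust, R 4.3.3), with Benjamini-Hochberg adjustment over all genes tested and a threshold of 0.05. Values are CPM scaled by TMM, with a prior count of 2 on the log2 scale. The test was tried on simulated data first. Named members are those with the lowest and highest adjusted p of each role in ischemic over control microglia, plus Mki67, Top2a, Pcna and Mcm2, and in each comparison the extremes and those against their phase. For other lists they are among those of lowest adjusted p or opposite direction, except Csf1r and Flt3, which were chosen after their values were seen. The members and lists were chosen with earlier results of these data known. Alternatives were other scalings, filters and tools (DESeq2 1.42.0, limma 3.58.1), fewer libraries and each library left out. The group order and the other gene lists with fewer libraries were alternatives chosen after seeing the data. Exon lengths came from GENCODE M21.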

Additional observations from a re-analysis of the deposited data

Results flagged for a closer look

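Of 92 groups of 4 libraries checked, 7 held 1 library farther from the rest than Dixon's limit for the gap over the range allows, where chance gives about 1 in 20. Control microglia replicate 3 was far above the other 3 control libraries for Birc5 (6.27 CPM), Ccnb2 (7.38 CPM), Cenpe (8.12 CPM), Foxm1 (20.1 CPM), Kif23 (11.6 CPM) and Tk1 (6.97 CPM). For Mki67, ischemic microglia replicate 3 stood apart from the other 3 at 154 CPM. All other flags fell on the same library, control microglia replicate 3, so they are not independent. Their number was not tested against chance.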

How the results depend on the processing

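No paired analysis was possible because the titles of the groups compared share fewer than 2 numbers. Brain CD11c replicate 1 and spleen CD11c replicate 4 both carry the number 11 in their titles. Whether they come from 1 animal is not stated, and the test treated them as independent. In brain CD11c cells over ischemic microglia, S-phase members called higher numbered 3 with library totals and 10 with brain replicates 1 and 2 alone, and 1 to 2 with 1 library left out. Those called lower numbered 11 with replicates 3 and 4 alone and 0 to 1 with 1 library left out, and G2/M members called lower numbered 22 with replicates 3 and 4 alone. In brain over spleen CD11c cells, S-phase members called higher numbered 0 with library totals, 5 with replicates 1 and 2, 0 with 3 and 4, and 1 to 4 with 1 library left out. Those called lower numbered 17, 6 and 18 in the same first 3 settings. G2/M members called lower, 7 in the report, numbered 19 with library totals, 2 without the filter, 11 with at least 1 CPM in 4 libraries, 14 with DESeq2, 21 with limma-voom, 1 with replicates 1 and 2, 27 with 3 and 4, and 3 (without brain replicate 4) to 16 (without brain replicate 1) with 1 library left out. With replicates 3 and 4 alone Mcm2 changed sign against ischemic microglia (log2 −0.59) and E2f1 against spleen CD11c cells (log2 −0.69), and the cause was not tested. Counts in ischemic over control microglia ranged over 19 to 22 for S-phase (19 without control replicate 2) and 25 to 28 for G2/M members (25 without control replicate 1), and those of spleen CD11c cells over control microglia stayed at 21 and 28, with 1 library left out. Low counts limit Orc1 in control microglia, and n = 4 limits all tests. Fits with 1 brain pair have n = 2 in that group and leave out the spread between the pairs.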
